A study of Mus musculus with 2 samples.

Results

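The leukotriene, prostaglandin and oxysterol receptor genes described here are 9 genes: the leukotriene B4 receptor Ltb4r1, the oxysterol receptor Gpr183, the prostaglandin E receptors Ptger1 to Ptger4, the platelet-activating factor receptor Ptafr, the leukotriene synthesis gene Alox5ap and the prostaglandin-degrading enzyme gene Hpgd. They were picked by exact gene symbol, with results of these arrays already known, and have 15 of the array's 45101 probe sets, or 9 of the 20663 genes counted. Intraepithelial lymphocytes (IEL), the T cells lodged in the gut lining, were studied in the small intestine of RAG-knockout mice that had received naive CD4 T cells 8 weeks earlier, a transfer model of colitis. The CD4CD8aa IEL were donor-derived CD4 cells that carried CD8 alpha, and the CD4 IEL were those without it. The contrast is thus one of CD8 alpha among CD4 IEL. Both populations came from C57BL/6 mice and were sorted from the same kind of recipient, and each was measured on 1 mouse gene expression array. RAG-knockout hosts lack lymphocytes with rearranged receptors but keep epithelial, myeloid and innate lymphoid cells. The labels give neither the age and number of the mice nor the RAG gene or the sorting gates.

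No group had a replicate, so no test and no p-value could be given, and each difference compares these arrays only. Signals are intensities divided by the median of their array. Differences are log2 CD4CD8aa IEL minus CD4 IEL, after signals under a floor of 0.4 times the array median were raised to it. A gene was called detected when the brighter array lay above the floor, and "at least" marks a fold whose dimmer array did not exceed it. The SD of log2 differences among probe sets of the same gene ran between 0.81 below the array median and 0.35 above 64 times the median. Brightness here is the mean log2 signal of both arrays. The SD was taken on floored differences of detected probe sets, which the floor shortens at dim signals. This same-gene SD measures how far probe sets on the same arrays disagree. It does not measure the spread between sorts, RNA preparations or arrays, which 1 array per group cannot give. On the CD4CD8aa and CD4 arrays, 69.9% and 70.0% of probe sets were above the floor. The sorted marker Cd8a had 291 in CD4CD8aa IEL and 3.79 in CD4 IEL, Cd4 had 86.4 and 72.6, and Cd3d had 163 and 170. The other CD8 marker, Cd8b1, was dim, with 1.29 in CD4CD8aa IEL and 0.514 in CD4 IEL, a log2 difference of 1.33. All 7 T cell markers were above the floor on both arrays, of which Cd2, an adhesion receptor, was 6.78-fold lower in CD4CD8aa IEL (9.18 and 62.3), Cd3e was just past 2-fold higher (118 and 59.0) and 5 lay between. In RNA from sorted populations, fewer cells that use a gene and less RNA per cell cannot be told apart.

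These genes belong to lipid signalling systems that move and restrain immune cells. Leukotriene B4 is made from arachidonic acid by 5-lipoxygenase, which needs the membrane protein encoded by Alox5ap, and its high-affinity receptor, encoded by Ltb4r1, draws neutrophils and effector T cells to inflamed tissue. Prostaglandin E2 acts through a family of G protein-coupled receptors: the products of Ptger2 and Ptger4 raise cyclic AMP, that of Ptger3 mostly lowers it and that of Ptger1 raises calcium. Gpr183 encodes EBI2, a receptor for dihydroxylated cholesterol that positions B cells, CD4 T cells and innate lymphoid cells in lymphoid and gut tissue.

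The receptors did not move as a block. Ltb4r1, Gpr183 and Ptger2 were several-fold dimmer in CD4CD8aa IEL, at signals well above the floor on at least the CD4 array, whereas Ptger4 was bright on both arrays and lay within 2-fold. Of the 9 genes, 8 were detected, and of these 4 were at least 2-fold lower, 0 were at least 2-fold higher and 4 lay between. Among all 17376 detected genes 6.26% were at least 2-fold lower and 6.66% at least 2-fold higher. Since the genes were picked from this same contrast, their count is given as a description. The median log2 difference was -0.66 over the 8 detected genes and 0.06 over all detected genes.

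**Figure D1:**
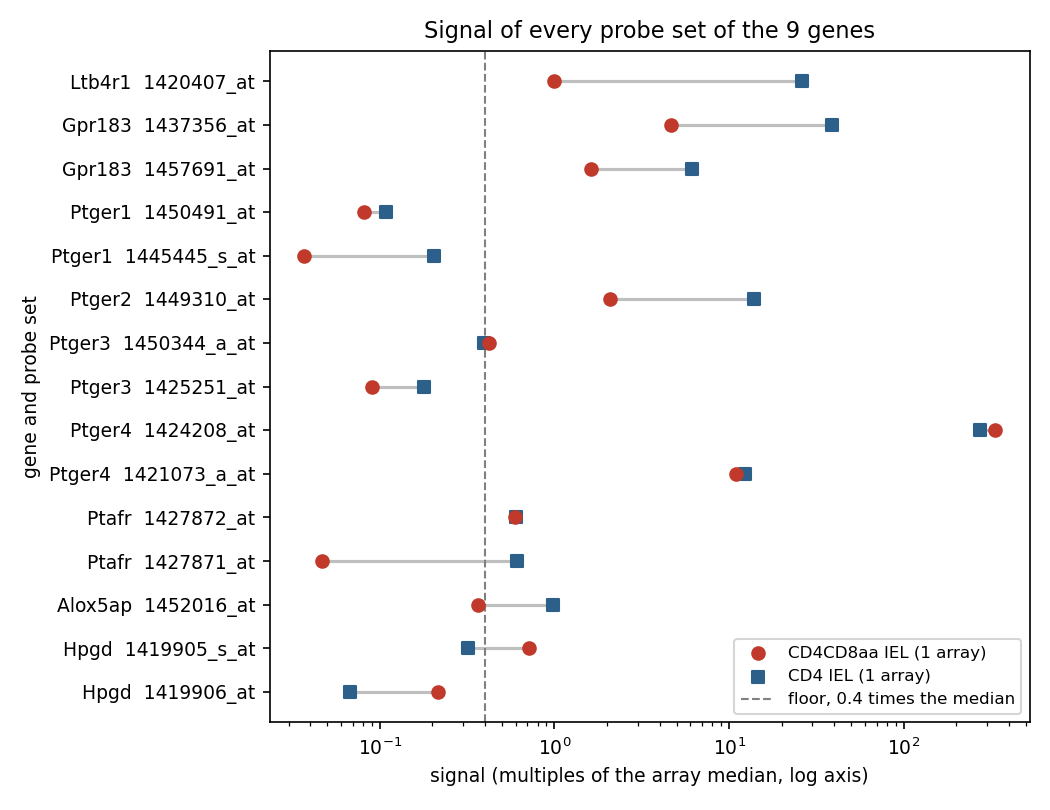
Signal of each of the 15 probe sets on the CD4CD8aa IEL array (circles) and the CD4 IEL array (squares), as multiples of the array median on a log axis, with the floor as a dashed line. Ltb4r1, both probe sets of Gpr183 and Ptger2 lie to the left on the CD4CD8aa array, while both probe sets of Ptger4 nearly coincide between the arrays.

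Ltb4r1 showed the widest gap of the 9 genes. Its single probe set, 1420407_at, had a signal of 0.990 in CD4CD8aa IEL (raw intensity 80.3) and of 26.0 in CD4 IEL (raw intensity 2142.4). This was a log2 difference of -4.71, or 26.2-fold lower in CD4CD8aa IEL, against a same-gene SD of 0.45 at the mean brightness of the arrays. At a brightness below the array median, where the CD4CD8aa signal alone lay, the same-gene SD was 0.81. The CD4CD8aa signal was close to the array median, and the fold leans on that dim value: under a floor of 4 times the median it was -2.70. Among the 17376 detected genes, Ltb4r1 ranked 8 when ordered from the lowest difference. Of the 3008 genes whose brighter array lay between 16 and 64 times the median, as it did for Ltb4r1 and Gpr183, 2.36% were at least 2-fold lower.

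Gpr183 has 2 probe sets, and both were lower in CD4CD8aa IEL. The brighter, 1437356_at, had 4.66 in CD4CD8aa IEL (raw intensity 378.1) and 38.7 in CD4 IEL (raw intensity 3193.4), a log2 difference of -3.05 or 8.30-fold lower. The dimmer, 1457691_at, had 1.61 in CD4CD8aa IEL and 6.10 in CD4 IEL, a log2 difference of -1.92 or 3.78-fold lower. The probe sets thus gave the same direction and differed in size. The same-gene SD, taken around the mean of a gene's probe sets, was 0.45 and 0.55 at their signals. In the RefSeq annotation Gpr183 overlaps Ubac2, a gene for a ubiquitin-associated protein, which lay within 2-fold in the other direction, at 53.0 in CD4CD8aa IEL and 35.8 in CD4 IEL (log2 difference 0.57). The neighbouring receptor gene Gpr18 had 222 and 163, a log2 difference of 0.44.

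The prostaglandin E receptors differed from one another. Ptger2, which encodes EP2, had a signal of 2.09 in CD4CD8aa IEL (raw intensity 169.2) and of 13.9 in CD4 IEL (raw intensity 1146.7) at its single probe set. Its log2 difference was -2.74, or 6.66-fold lower, against a same-gene SD of 0.45. Ptger4, which encodes EP4, the other receptor that raises cyclic AMP, had 334 in CD4CD8aa IEL (raw intensity 27069.6) and 273 in CD4 IEL (raw intensity 22556.4). That difference of 0.29 was inside the same-gene SD of 0.35. The second Ptger4 probe set, 1421073_a_at, had 10.9 and 12.3, a log2 difference of -0.17, so that the probe sets disagreed in sign and both were small. The brightest probe set of any kind had 801 on the CD4CD8aa array and 682 on the CD4 array, and whether brightness compressed the Ptger4 difference was not tested.

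Ptger3 and Ptger1, for EP3 and EP1, were close to or under the floor in both populations. The brighter Ptger3 probe set had 0.420 in CD4CD8aa IEL and 0.396 in CD4 IEL, which passes the floor on 1 array only, with a log2 difference of 0.07. Its other probe set had 0.0900 and 0.178 and was not detected. Ptger1 was not detected with its own probe sets: 1450491_at had 0.0814 in CD4CD8aa IEL and 0.109 in CD4 IEL, and 1445445_s_at had 0.0370 and 0.204. The label columns of the deposited table disagree on the second of these, so its assignment to Ptger1 is uncertain.

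**Figure D2:**
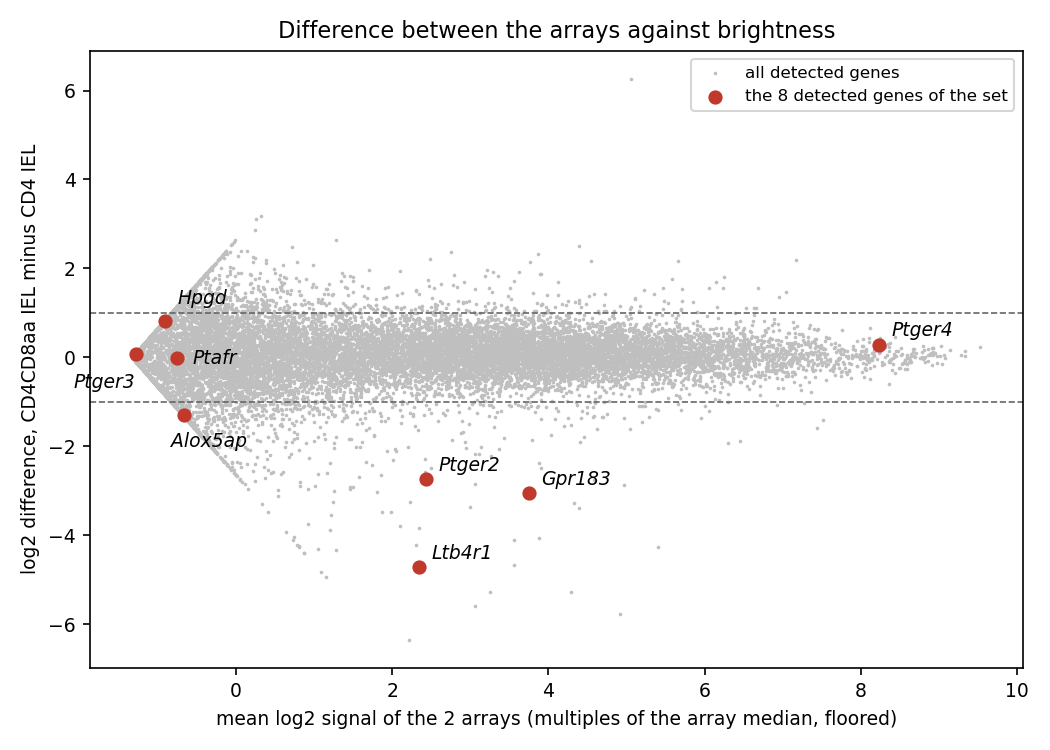
Log2 difference (CD4CD8aa IEL minus CD4 IEL) against the mean log2 signal of the arrays for the 17376 detected genes (small points) and the 8 detected genes of the set (large points), with dashed lines at 2-fold. Ltb4r1, Gpr183 and Ptger2 lie far below the cloud of genes of like brightness, Ptger4 lies inside it at the bright end, and the other 4 lie at its dim edge, where the floor limits the difference.

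The sequences before the start sites of the 3 lower receptors and of Ptger4 are shown because all encode lipid receptors yet differed in this comparison. Of the 9 genes, 7 had an entry in the RefSeq promoter table for GRCm38.p6; Ptger1 and Alox5ap had none there. Each sequence is the 250 bases before the annotated start, read 5′ to 3′ on the gene's strand, at chr14:55765712-55765961 (plus strand) for Ltb4r1, chr14:121965194-121965443 (minus strand) for Gpr183, chr14:44987861-44988110 (plus strand) for Ptger2 and chr15:5244188-5244437 (minus strand) for Ptger4. Capitals mark matches to the motifs searched.
Ltb4r1: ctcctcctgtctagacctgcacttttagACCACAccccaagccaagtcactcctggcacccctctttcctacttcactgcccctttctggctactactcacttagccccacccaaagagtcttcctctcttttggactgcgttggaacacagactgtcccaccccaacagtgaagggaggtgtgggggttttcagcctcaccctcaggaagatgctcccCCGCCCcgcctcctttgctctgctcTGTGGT
Gpr183: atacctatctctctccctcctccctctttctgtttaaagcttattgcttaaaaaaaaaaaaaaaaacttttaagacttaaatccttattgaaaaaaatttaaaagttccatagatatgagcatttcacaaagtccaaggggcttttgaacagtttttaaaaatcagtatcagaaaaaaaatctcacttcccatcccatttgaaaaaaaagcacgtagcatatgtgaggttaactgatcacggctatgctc
Ptger2: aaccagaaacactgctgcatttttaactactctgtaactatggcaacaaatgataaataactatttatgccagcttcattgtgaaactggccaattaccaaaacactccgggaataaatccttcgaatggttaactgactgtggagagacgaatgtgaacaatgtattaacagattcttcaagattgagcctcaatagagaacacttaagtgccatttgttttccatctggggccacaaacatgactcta
Ptger4: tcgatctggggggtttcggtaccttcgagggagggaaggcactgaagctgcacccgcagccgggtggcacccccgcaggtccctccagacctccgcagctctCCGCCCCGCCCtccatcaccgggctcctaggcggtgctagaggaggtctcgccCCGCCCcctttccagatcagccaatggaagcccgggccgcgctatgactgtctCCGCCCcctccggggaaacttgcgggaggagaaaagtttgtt

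The 3 lower receptors differed in base composition. G and C made up 56.8% of the Ltb4r1 sequence, 32.0% of that of Gpr183, 38.0% of that of Ptger2 and 66.8% of that of Ptger4, against a median of 52.4% over 32851 promoter entries of the same length, of which the 5th and 95th percentiles were 34.8% and 73.6%. Both strands were searched for 7 motifs. The RUNX motif TGTGGT, which 14.0% of all entries hold, stood in the Ltb4r1 sequence at -222 to -217 on the gene's minus strand and at -6 to -1 on its plus strand, counted back from the start site. The GC box GGGCGG, present in 32.7% of entries, stood once in the Ltb4r1 sequence and 4 times in that of Ptger4, where 2 copies overlapped by 1 base. Neither was found in the Gpr183 and Ptger2 sequences. None of the 4 sequences held the ROR half-site AGGTCA, which 14.0% of entries hold. None held the AP-1 motif TGANTCA (6.75% of entries). None held the STAT motif TTCNNNGAA (7.02% of entries). The cyclic AMP response element TGACGTCA (1.55% of entries) was likewise not found. The TATA motif TATAAA (12.4% of entries) was not found either. A match is a run of letters and no evidence of binding.

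The remaining genes were dim. Ptafr, the receptor for platelet-activating factor, had 0.592 in CD4CD8aa IEL and 0.599 in CD4 IEL at 1427872_at, a log2 difference of -0.02. Its other probe set, 1427871_at, had 0.0469 in CD4CD8aa IEL and 0.610 in CD4 IEL, at least 1.52-fold lower once the floor was applied. The authors' deposited table gives 13.01 for that probe set as CD4 over CD4CD8aa, a ratio that rests on a CD4CD8aa raw intensity of 3.8.

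Alox5ap, whose product FLAP hands arachidonic acid to 5-lipoxygenase, had 0.364 in CD4CD8aa IEL (raw intensity 29.5) and 0.987 in CD4 IEL (raw intensity 81.4). This was at least 2.47-fold lower, with the CD4 signal itself under the array median. At such signals the same-gene SD was 0.81, and 9.34% of the 7513 genes whose brighter array lay under 2 times the median were at least 2-fold lower. With the floor 2 times as high the log2 difference was -0.30.

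Hpgd, whose enzyme inactivates prostaglandin E2, was the only one of the detected genes besides Ptger4 and Ptger3 with a difference above 0. Its brighter probe set, 1419905_s_at, had 0.710 in CD4CD8aa IEL and 0.320 in CD4 IEL, at least 1.78-fold higher. The other, 1419906_at, had 0.216 and 0.0679, both under the floor. The direction of Hpgd therefore rests on 1 probe set with 1 array at the floor, at a signal where the same-gene SD was 0.81.

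**Figure D3:**
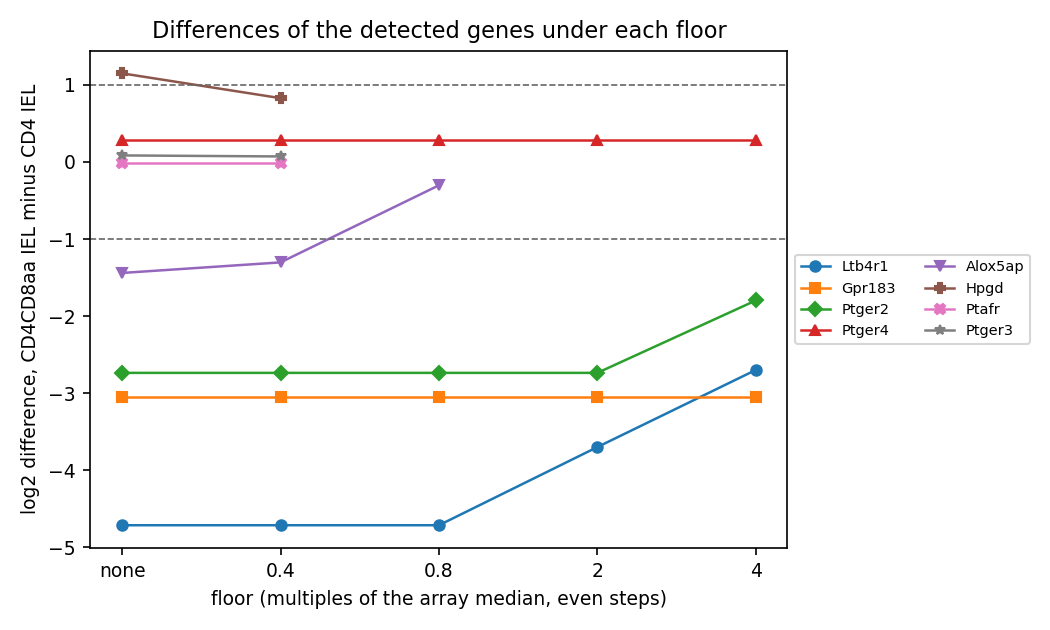
Log2 difference (CD4CD8aa IEL minus CD4 IEL) of the 8 detected genes with no floor and with floors of 0.4, 0.8, 2 and 4 times the array median, with dashed lines at 2-fold; a line ends where the gene is no longer detected. Gpr183 and Ptger4 keep their values under every floor, Ltb4r1 and Ptger2 shrink to -2.70 and -1.80 at the highest floor, and the 4 dim genes drop out.

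The other genes of these pathways mostly lay within 2-fold. From a list of 58 genes for leukotriene, prostanoid, oxysterol and platelet-activating factor metabolism and reception and for the G protein and cyclic AMP relay, 57 matched the array, 1 of them through an older symbol, and 51 were detected. Of these, 2 were at least 2-fold lower, 2 at least 2-fold higher and 47 between, with a median log2 difference of 0.08. The lower and the higher genes each make up 3.92% of the detected list, against 6.26% lower and 6.66% higher among all detected genes.

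The leukotriene list had 6 detected genes, with 1 lower, 0 higher and 5 between. Cysltr1, a receptor for cysteinyl leukotrienes, had 0.668 in CD4CD8aa IEL and 4.64 in CD4 IEL, a log2 difference of -2.79 or 6.94-fold lower. Its other probe set had 0.0838 in CD4CD8aa IEL and 2.76 in CD4 IEL, at least 6.90-fold lower. Under a floor of 4 times the median the first gave -0.21. The second receptor gene, Cysltr2, was not lower, at 13.7 in CD4CD8aa IEL and 10.4 in CD4 IEL (log2 difference 0.41). The second leukotriene B4 receptor gene, Ltb4r2, which lies next to Ltb4r1, was not detected, with 0.143 and 0.211.

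Genes that make leukotriene B4 showed no common shift. Alox5, for 5-lipoxygenase itself, had 1.26 in CD4CD8aa IEL and 1.02 in CD4 IEL, a log2 difference of 0.31 with a same-gene SD of 0.67. Lta4h, for the hydrolase that completes the synthesis, had 9.96 and 5.99 (log2 difference 0.73), while its dimmer probe set gave -0.72.

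The prostanoid list had 16 detected genes, with 1 lower, 0 higher and 15 between at the brightest probe set of each. The lower one was Hpgds, for the haematopoietic prostaglandin D synthase, which had 0.309 in CD4CD8aa IEL and 1.30 in CD4 IEL, at least 3.25-fold lower, but -0.70 on the log2 scale with the floor 2 times as high. The brightest of the others were Ptges3, a co-chaperone with prostaglandin E synthase activity (109 in CD4CD8aa IEL and 75.7 in CD4 IEL, log2 difference 0.53, but -0.46 at its other probe set), the carbonyl reductase gene Cbr1 (19.1 and 15.8, 0.28) and the exporter gene Abcc4 (5.17 and 7.22, -0.48). The cyclooxygenase genes stayed under the array median. Ptgs1 had 0.570 and 0.772, and Ptgs2 had 0.575 and 0.542. The prostaglandin E synthase gene Ptges was also dim, at 0.565 in CD4CD8aa IEL and 0.942 in CD4 IEL (log2 difference -0.74). Its dimmer probe set went the other way and was past 2-fold higher in CD4CD8aa IEL. That log2 difference was at least 2.10, with the CD4 array at the floor.

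The oxysterol list had 8 detected genes, with 0 lower, 1 higher and 7 between. Nr1h2, the gene for the oxysterol-sensing nuclear receptor LXR beta, had 22.5 in CD4CD8aa IEL and 11.0 in CD4 IEL, just past 2-fold at a log2 difference of 1.03, and it was 0.98 with quantile normalization. Its relative Nr1h3 had 2.19 and 1.93 (log2 difference 0.19), and the cholesterol exporter Abcg1, a target of these receptors, had 21.0 and 15.3 (0.46). A dimmer Abcg1 probe set had 1.52 in CD4CD8aa IEL and 0.288 in CD4 IEL, a log2 difference of at least 1.92 with the CD4 array at the floor. The enzymes that make the ligand of EBI2 were dim: Ch25h had 0.695 in CD4CD8aa IEL and 0.756 in CD4 IEL, and Cyp7b1 had 0.660 and 0.285. Hsd3b7, which degrades that ligand, had 1.15 and 1.25, a log2 difference of -0.12.

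The platelet-activating factor list had 5 detected genes, with 0 lower, 1 higher and 4 between. Pafah2, for an enzyme that hydrolyses the lipid, had 1.10 in CD4CD8aa IEL and 0.412 in CD4 IEL (log2 difference 1.41), which was 0.45 with the floor 2 times as high. Pafah1b1, Lpcat1 and Pla2g7 had log2 differences of 0.07, -0.30 and 0.44.

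At the brightest probe set of each gene, none of the 16 detected genes of the G protein and cyclic AMP relay was 2-fold apart, with a median log2 difference of 0.10. Dimmer probe sets of the kinase gene Prkaca (1.56, against 0.66 at the brightest) and of the transcription factor gene Creb1 (-1.96, against -0.04) were past 2-fold. Gnas, for the stimulatory G protein that EP2 and EP4 use, had 177 in CD4CD8aa IEL and 142 in CD4 IEL (log2 difference 0.32, and -0.45 at its other detected probe set). The receptor kinase gene Grk6 had 191 and 165 (0.21). The phosphodiesterase gene Pde3b had 215 and 139 (0.62), which is past its same-gene SD of 0.35 and under 2-fold.

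**Figure D4:**
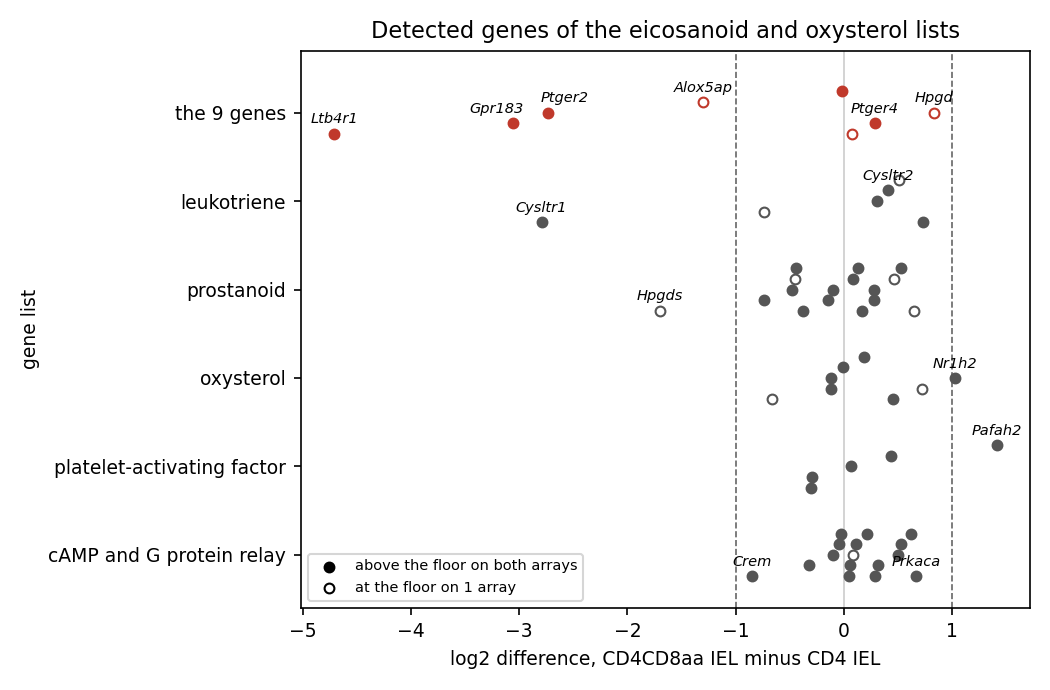
Log2 difference (CD4CD8aa IEL minus CD4 IEL) of the detected genes of each list, one point per gene, with dashed lines at 2-fold; open points have 1 array at the floor. Apart from the 9 genes, Cysltr1 and Hpgds are the points beyond 2-fold on the lower side, and Nr1h2 and Pafah2 those on the higher side.

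Several of these receptors are also made by myeloid and epithelial cells, so markers of other cells were set beside them. The 11 myeloid markers summed to 25.6 in CD4CD8aa IEL and 26.2 in CD4 IEL, with 10 and 8 of them above the floor. Of the 10 detected, 1 was at least 2-fold lower, 1 at least 2-fold higher and 8 between. Cd14 was lower (0.637 in CD4CD8aa IEL and 1.90 in CD4 IEL, log2 difference -1.57), and S100a8 was higher (0.825 and 0.0933, at least 2.06-fold). Csf1r had 10.2 and 9.79, Lyz2 had 2.38 and 3.01, and Itgam was under the floor on both arrays. The 4 dendritic cell markers summed to 9.13 in CD4CD8aa IEL and 4.80 in CD4 IEL, with Itgax higher (5.33 and 1.76, 3.02-fold) and 3 between. The 5 mast cell markers summed to 11.8 and 20.2, most of it Kit (10.5 and 18.5), and none of the 4 detected was 2-fold apart. Of the 2 B cell markers detected, Cd79b was lower (0.420 in CD4CD8aa IEL and 1.42 in CD4 IEL, log2 difference -1.76) and Ms4a1 was not 2-fold apart (0.789 and 0.812). The 10 epithelial markers summed to 37.8 in CD4CD8aa IEL and 45.5 in CD4 IEL, all of them above the floor on both arrays. At the brightest probe set of each, 3 were at least 2-fold lower, 1 at least 2-fold higher and 6 between. The lower ones were Krt18 (4.74 in CD4CD8aa IEL and 13.3 in CD4 IEL, log2 difference -1.49), Krt19 (0.784 and 1.96, -1.32) and Muc2 (0.798 and 1.74, -1.12). The higher one was Vil1 (1.12 and 0.427, 1.40). Dimmer probe sets of Epcam (-1.88, against 0.30 at the brightest) and of Krt8 (-1.48, against -0.68) were past 2-fold lower. The markers of other cells at least 2-fold apart at their brightest probe set thus went both ways. Cd14, Cd79b, Krt18, Krt19 and Muc2 differed in the same direction as Ltb4r1, Gpr183 and Ptger2. S100a8, Itgax and Vil1 differed in the opposite direction, and the other detected markers lay within 2-fold. Beyond these values, the part of other cells in the differences of the 9 genes was not tested.

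Genes with the most similar pair of signals were found by the Euclidean distance of the floored log2 signals over the 2 arrays, taken across detected genes. Nearest to Ltb4r1 was Ccr2, a chemokine receptor gene, at a distance of 0.35, with 1.14 in CD4CD8aa IEL and 21.4 in CD4 IEL. Tnfrsf25, which encodes a receptor of the TNF family, followed at 0.62 with 1.35 and 19.2, and then Gm10482 at 0.74 with 1.16 and 15.96. The detected probe sets of Ccr2 gave log2 differences between -4.23 and -1.21. Nearest to Gpr183 were Tnfrsf4, for the costimulatory receptor OX40, at 0.46 (6.33 in CD4CD8aa IEL and 35.7 in CD4 IEL), Odc1, for the first enzyme of polyamine synthesis, at 0.52 (6.47 and 33.6), and Tmem176a at 0.74 (3.58 and 60.2). With 2 arrays this likeness says no more than that the genes had like signals on each.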

How the data were processed

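Each group's RNA went onto 1 Affymetrix mouse array of 45101 probe sets. The submitters' processing notes name GCOS 1.2 and the design text GeneSpring GX10; how background was corrected and probes were summarised is not stated there. The authors deposited raw intensities and normalized intensities, the second being the first over the array median (81.1 for CD4CD8aa IEL, 82.5 for CD4 IEL) within 0.005, the rounding of the table. The authors' deposited log2 fold and linear fold are CD4 over CD4CD8aa, per the file headers, opposite in sign to the differences here.

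Normalized intensities were rebuilt at full precision (Python 3.11.15, pandas 2.3.3), floored at the higher of the arrays' 30th percentiles (0.4) and log2-transformed. The floor came from a percentile because the call columns carry no sample name. Of 45101 probe sets, 37782 name 1 symbol; 64 controls, 1399 with several symbols, 5820 with none and 36 with a symbol turned into a date or number were left out. Each gene was represented by its brightest probe set (mean log2 signal over both arrays). The same-gene SD used 20185 detected probe sets of 7380 genes. The script was tested on simulated data. With 1 array per group no test was possible; precision is limited by the number of arrays. Alternatives were other floors, raw intensities, quantile normalization, median centring, the median over probe sets and the series matrix values.

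The members and the lists were chosen with earlier results of these data known. The text names all 9 genes with every probe set and every detected gene of the other lists at least 2-fold apart. It also names up to 3 of the brightest others in each list and the 3 nearest genes to Ltb4r1 and to Gpr183. Ltb4r2, Ptgs1, Ptgs2, Ptges, Ch25h, Cyp7b1, Ubac2, Gpr18, Prkaca and Creb1 were added after their values were seen. Gene names and promoters are from RefSeq (GRCm38.p6), since the sources used here name no build.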

Additional observations from a re-analysis of the deposited data

How the results depend on the processing

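Ltb4r1, Gpr183 and Ptger2 stayed at least 2-fold lower, and Ptger4 within 2-fold, under all 9 alternatives. Some alternatives could hardly change this. The series matrix values repeat the rebuilt intensities, and raw intensities and median centring move every unfloored difference by a small constant. Ltb4r1, for example, went from -4.71 to -4.74 and -4.75 under the last 2. All alternatives reuse the same arrays. With no floor, 1 of the 9 genes (Hpgd) was at least 2-fold higher, 2676 genes were lower and 2706 higher, and of the other pathway genes 4 were lower and 7 higher. With the floor 2 times as high, 483 genes were lower and 447 higher, 1 other pathway gene was lower and 1 higher, and the median over the 5 genes of the set still detected was -2.74. Under a floor of 2 times the median, the counts were 219 lower and 204 higher, 1 and 1 of the other pathway genes, and a median of -2.89 over 4 genes. Under a floor of 4 times the median, they were 140 lower and 141 higher, 0 and 1 of the other pathway genes, and a median of -2.25 over 4 genes. These shifts follow from the floor itself, which removes dim genes and shortens folds. Against 1088 lower and 1157 higher genes and 2 and 2 other pathway genes in the values reported, quantile normalization and median centring each gave 1 higher pathway gene, since Nr1h2 lies at 2-fold, and the median over probe sets gave 4. The difference of Gpr183 was -2.49 as the median over its probe sets. No replicate could be left out. No paired analysis was possible because each group has 1 array.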

Other observations

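Besides the 15 probe sets, 3 carry an older label of one of the 9 genes but no current gene symbol in the deposited table, and were therefore not counted. The one labelled Ptger1 had a signal of 24.2 in CD4CD8aa IEL and 14.4 in CD4 IEL, a log2 difference of 0.75, unlike the undetected Ptger1 probe sets. The one labelled Ebi2, the older name of Gpr183, had 0.319 in CD4CD8aa IEL and 0.792 in CD4 IEL, at the floor on 1 array, with a log2 difference of -0.98. The one labelled Alox5ap had 0.763 and 0.749, a log2 difference of 0.03, where the Alox5ap probe set itself gave -1.30. The genomic source of these 3 probe sets was not analysed here.

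Of the protein-coding genes that lie next to or overlap Ltb4r1, Gpr183 and Ptger2 on the chromosome, none was detected and 2-fold apart. Ltb4r2 and Adcy4, on either side of Ltb4r1, were not detected. Ptgdr and Txndc16, on either side of Ptger2, had log2 differences of -0.38 and -0.80, with 0.621 and 1.56 in CD4CD8aa IEL and 0.808 and 2.73 in CD4 IEL.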
